A study of Mus musculus with 6 samples.

Results

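RNA was described in 3 of the 6 bulk libraries of the series, namely the DMSO libraries of sorted mouse intestinal stem cells kept in culture, which serve as the solvent controls. They were chosen by their titles, DMSO-1, DMSO-2 and DMSO-3, and the other 3 libraries, treated with INT-777, were not used here. The cells came from mice of the strain B6.129P2-Lgr5tm1(cre/ERT2)Cle/J, in which a cassette of green fluorescent protein and a tamoxifen-inducible Cre recombinase sits in the Lgr5 gene itself, so that Lgr5 read pairs come from an edited locus. For each library the brightest green cells of 4 mice, pooled, were sorted, set in Matrigel, and grown in crypt medium before DMSO was added. The medium contained 3 µM CHIR99021, which inhibits GSK3, and 1 µM JAG-1, a peptide that acts as a Notch ligand. The time in DMSO is 12 h in the sample labels and 16 h in the design text. Each library was prepared on another day (days 1, 2 and 3). Age, sex and gut segment are not given in the sources used here, and no freshly sorted cells were measured, so the values describe stem cells after sorting and culture.

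Lgr5-high cells sit at the crypt base between Paneth cells, divide steadily, and give rise to all lineages of the gut epithelium. Their state is known to depend on Wnt signalling, which R-spondin strengthens through Lgr4 and Lgr5, and on Notch signals from neighbouring cells, which hold back the secretory fate. When Notch weakens, Atoh1 turns daughter cells towards goblet, Paneth and enteroendocrine cells, while the remaining daughters become enterocytes. CHIR99021 stands in for a Wnt signal by blocking GSK3, and JAG-1 stands in for the Notch ligand of a neighbour.

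The 3 libraries held 45682340, 45865417 and 46275592 read pairs on genes, so that 1 CPM (counts per 1000000 assigned pairs) corresponds to 45.7 to 46.3 pairs. A gene without a pair in a library has an upper limit of 3 pairs, or 0.0648 to 0.0657 CPM, from counting error alone. Levels of different genes are compared below as TPM, which also corrects for the exon length of each gene. Libraries 1 and 2 were very similar and library 3 stood apart, so levels are given for each library in the order of days 1, 2 and 3. Among 12824 genes with a mean of at least 1 CPM, the median absolute log2 difference was 0.05 between libraries 1 and 2, where counting noise alone gives 0.04, and 0.16 between library 3 and either of the others. Only 9 of these genes (0.0702%) differed more than 2-fold between libraries 1 and 2, against 511 (3.98%) between 1 and 3 and 501 between 2 and 3. Library 3 also had the lowest RNA integrity number, 8.7 against 9.3 and 9.6, and the lowest ratio of 28S to 18S RNA, 1.2 against 1.7 and 1.8. Day, mice and RNA quality cannot be told apart here, and their part in any difference of library 3 was not tested. No significance test was made. SD values describe the spread over 3 days, and a bulk level cannot tell fewer cells of a type from less RNA per cell.

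The most abundant transcripts were those of mitochondria, the translation machinery, chaperones and simple-epithelium keratins, with a few genes of goblet and Paneth cells. The gene with most read pairs was mt-Co1, a subunit of cytochrome oxidase, at 20985 ± 472 CPM (mean ± SD, n = 3), followed by mt-Nd1 of respiratory complex I at 9006 ± 513. Next by read pairs was Fcgbp, a large mucus protein of goblet cells, at 8605 ± 9036 CPM, and its SD exceeded its mean because library 3 held most of it. Behind it came mt-Cytb of complex III and Eef1a1, the elongation factor that brings transfer RNA to the ribosome, at 7108 ± 154 CPM. The other genes among the 20 with most pairs were mt-Nd5, mt-Nd2 and mt-Nd4 of complex I, the elongation factor Eef2, the chaperones Hsp90ab1 and Hspa8, the keratins Krt8 and Krt19, Actb, the lectin Lgals4, Pabpc1, Lyz1, Gapdh, the ATP synthase subunit Atp5b and Eif4g1. All 10 genes at the head of the CPM ranking were the same in every library, and together they took 7.16, 7.43 and 8.42% of the assigned pairs. Library 3 was highest in this share. Mitochondrial genes took 5.61 ± 0.302% of pairs, and 50% of all pairs lay on 1114 to 1128 genes.

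Correcting for length moved small secreted peptides up and large mucus genes down. By TPM the head of the ranking was again mt-Co1 (44273 ± 1165 TPM), and Eef1a1 was the highest nuclear gene at 9293 ± 163. Directly behind Eef1a1 and the mitochondrial genes, among them mt-Nd6, came Defa24, an alpha defensin of Paneth cells whose exons span 419 bases, at 8265, 7476 and 5642 TPM in libraries 1, 2 and 3. Tff3, the trefoil peptide of goblet cells, was next at 3201, 3053 and 13935 TPM, far higher in library 3 than in the others. Fcgbp, with 10497 bases of exon, dropped to rank 25 of the protein-coding genes at 1068, 1043 and 5872 TPM. The remainder of the 20 highest by TPM were the ribosomal stalk protein Rplp1, Krt8, Lyz1, the calcium-binding protein S100a11, the lectin Lgals2, Krt19, Eef2, Hsp90ab1, the thymosin precursor Ptma and Actb. The 10 genes at the head of each library took 16.9 ± 0.518% of the TPM.

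**Figure D1:**
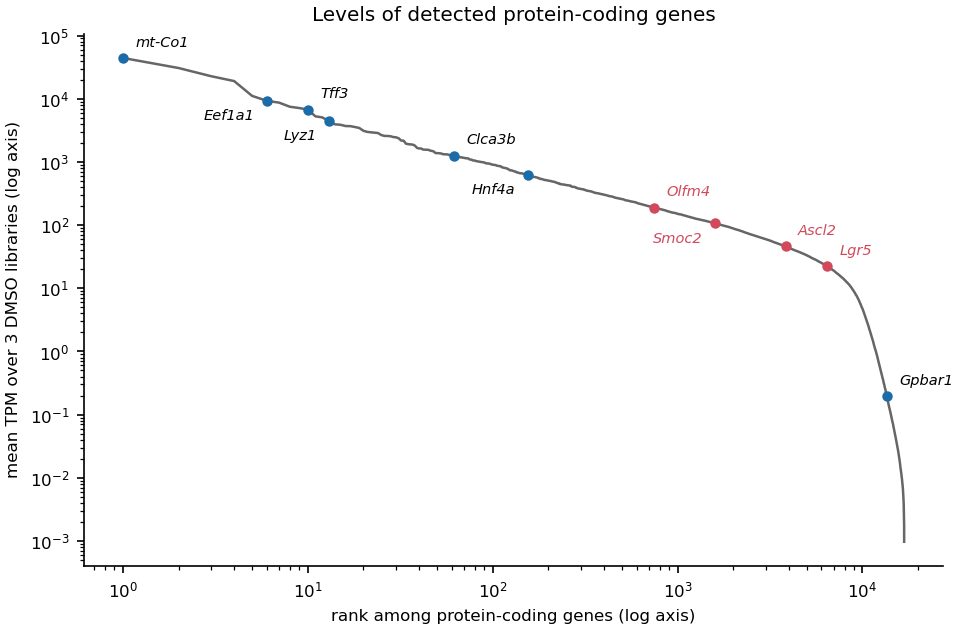
Mean TPM over the 3 DMSO libraries (vertical, log axis) against the rank of each detected protein-coding gene (horizontal, log axis), with the 4 stem cell markers in red and other named genes in blue. Olfm4 lies at rank 746 and Lgr5 at rank 6449, before the steep end of the curve, on which Gpbar1 lies.

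Of 21998 protein-coding genes, 11514 (52.3%) reached 1 TPM in every library, 8543 (38.8%) reached 10 TPM, 1566 (7.12%) reached 100 TPM and 74 reached 1000 TPM. No read pair was found for 5183 of them (23.6%). The median over all protein-coding genes was 2.08 TPM, and 26.9 TPM among those that reached 1 TPM. These shares are the background for the counts in the gene lists below.

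All 4 genes that mark Lgr5-high stem cells were present in every library. Olfm4, a secreted glycoprotein of crypt base cells (chromosome 14, 79984081 to 80023139, GRCm38), was at 217, 209 and 142 TPM. Smoc2, an extracellular matrix protein (chromosome 17, 14279506 to 14404790), was at 105, 103 and 111 TPM and kept the same level in library 3. Ascl2, the Wnt-responsive transcription factor that maintains the stem cell state (chromosome 7, 142966829 to 142969264), was at 49.5, 53.4 and 35.3 TPM. Lgr5, the R-spondin receptor (chromosome 10, 115450311 to 115587780), was at 23.2, 23.9 and 19.7 TPM, from 3332, 3434 and 2886 read pairs. Olfm4, Ascl2 and Lgr5 were all lowest in library 3, and Smoc2 was not. Means and SD over the 3 libraries were 189 ± 41.5 TPM for Olfm4, 107 ± 4.3 for Smoc2, 46.1 ± 9.54 for Ascl2 and 22.3 ± 2.26 for Lgr5, and the ranges of neighbours in this order did not overlap. The order rests on the length used. Scaled by the longest transcript in place of all exon bases, Olfm4 was at 157.2 ± 34.5 and Smoc2 at 146.3 ± 5.80 TPM, Ascl2 at 36.6 ± 7.59 and Lgr5 at 37.4 ± 3.82, so that neither pair could be ordered. A gene on the opposite strand overlaps Lgr5 and another overlaps Smoc2, and these counts take both strands together. Lgr5 ranked 6449th and Olfm4 746th among the protein-coding genes, so Lgr5, whose reporter was used for the sort, was of middling level.

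RefSeq promoter windows (GRCm38.p6) were at hand for Ascl2 and Olfm4, and they are shown because the windows of these 2 stem cell genes differ in their content of CG. Each run is read 5′ to 3′ on the strand of the gene and ends at its annotated start or, for Olfm4, before an annotated exon. Capitals mark CG dinucleotides, at which DNA methylation occurs. The windows are chr7:142969265-142969514 on the minus strand for Ascl2 and chr14:80000052-80000250 on the plus strand for Olfm4. The RefSeq start of Olfm4 lies 16221 bases inside the gene span given above, which is that of the GENCODE annotation, whereas both annotations start Ascl2 at the same base.
Ascl2: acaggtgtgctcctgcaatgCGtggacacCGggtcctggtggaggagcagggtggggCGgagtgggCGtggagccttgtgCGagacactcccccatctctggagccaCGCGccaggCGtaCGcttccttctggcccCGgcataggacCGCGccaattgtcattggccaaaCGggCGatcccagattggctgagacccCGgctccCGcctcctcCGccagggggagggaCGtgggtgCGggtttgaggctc
Olfm4: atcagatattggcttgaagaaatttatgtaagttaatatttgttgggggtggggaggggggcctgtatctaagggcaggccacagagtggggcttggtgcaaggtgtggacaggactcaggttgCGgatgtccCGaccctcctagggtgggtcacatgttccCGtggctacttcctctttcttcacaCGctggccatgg
The Ascl2 run holds 19 CG in 250 bases and the Olfm4 run 4 CG in 199 bases. Over the full windows of 250 bases before and 50 after the start, the ratio of observed to expected CG was 0.685 for Ascl2 and 0.25 for Olfm4, against a median of 0.602 over 16514 genes.

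The wider set of genes known to be enriched in Lgr5-high cells was present as a whole. All 33 listed genes reached 1 TPM in every library and 27 reached 10 TPM, against 52.3% of protein-coding genes at 1 TPM and 38.8% at 10 TPM. The highest was Clca3b, of the family of calcium-activated chloride channel regulators, at 1315, 1346 and 1107 TPM, followed by the sodium-potassium-chloride cotransporter Slc12a2 at 489, 477 and 372. Cd44, the hyaluronan receptor and Wnt target, was at 215, 216 and 185 TPM and Lgr4, the close relative of Lgr5, at 155, 154 and 149. Also among the 5 highest was 2210407C18Rik at 160.0, 155 and 176 TPM. The summed level of the 33 genes was 3660.1, 3699.8 and 3297 TPM, and none of them differed more than 2-fold in library 3 from both others. Of protein-coding genes with a mean of at least 1 TPM, only 3.08% were higher by this rule and 0.431% lower. Of the 7 genes linked to reserve or position +4 cells all reached 10 TPM, with the keratin Krt19 (3702 ± 281 TPM), Hopx (175 ± 24.1), the EGF receptor inhibitor Lrig1 (113 ± 1.09), Clu (54.6 ± 7.15) and the Polycomb protein Bmi1 (35 ± 1.96) leading. Lrig1 and Mex3a count in both lists.

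Genes of the dividing cell were high in all libraries. All 26 proliferation genes reached 10 TPM in every library and 15 reached 100 TPM, against 38.8% and 7.12% of protein-coding genes. Mki67, the chromosome surface protein of cycling cells, was at 327, 326 and 265 TPM, and Pcna, the sliding clamp of DNA polymerase, at 288, 274 and 295. Cdk4, the kinase that drives entry into S phase, was at 291, 289 and 274 TPM, followed by Top2a (282, 282 and 247) and the cyclin Ccna2 (257, 253 and 195). Mki67, Top2a and Ccna2 were lowest in library 3, whereas Pcna was not. Of the 7 cell cycle inhibitors, Cdkn1a (p21) was highest at 107, 108 and 152 TPM, the highest value being in library 3, and Cdkn1b (p27) was at 77.7, 76.1 and 79.3.

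Markers of differentiated secretory cells were also abundant, and some Paneth and goblet markers stood above the stem cell markers themselves. The 14 Paneth cell markers summed to 17670.2, 16500.3 and 13992 TPM, against 395, 389.8 and 308 for the 4 stem cell markers. These sums cover lists of unlike length. By mean TPM with library 3 included, the median marker was at 171 for Paneth, 111 for goblet and 22.1 for enteroendocrine cells. It was at 76.3 for the 4 stem cell markers. After Defa24 came Lyz1, the lysozyme of Paneth granules, at 4683, 4542 and 4106 TPM and the lectin Itln1 at 2023, 1926 and 1875. The ribonuclease Ang4 was at 791, 776 and 1146 TPM and the alpha defensin Defa17 at 714, 659 and 583. All 14 reached 1 TPM in every library, 3 of them were more than 2-fold lower in library 3 than in both others (Defa22, Defa26 and Mptx2), and Gfi1 was more than 2-fold higher. The alpha defensins as a family summed to 15253, 13760.5 and 7437 TPM. Of the 14 members with a mean of at least 1 TPM, 11 were more than 2-fold lower in library 3 than in both others, against 0.431% of all protein-coding genes with that mean. Defa30, for example, was at 4281, 3837 and 842 TPM, and Defa21 at 593, 557 and 59.4. These genes are near-identical copies, and read pairs that fit several of them were left out of the counts, so single members are uncertain. Bulk RNA does not show whether these transcripts came from a few Paneth cells or from many cells at a low level.

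The promoter of Lyz1, the Paneth gene with most read pairs, is shown as a case of a very high level from a window poor in CG (RefSeq, GRCm38.p6, chr10:117292869-117293118, minus strand, capitals mark CG).
Lyz1: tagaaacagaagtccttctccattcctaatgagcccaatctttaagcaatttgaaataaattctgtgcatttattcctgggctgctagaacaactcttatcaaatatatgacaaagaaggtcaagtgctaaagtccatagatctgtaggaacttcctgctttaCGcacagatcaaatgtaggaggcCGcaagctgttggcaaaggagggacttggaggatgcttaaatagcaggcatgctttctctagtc
It holds 2 CG in 250 bases, and the ratio of observed to expected CG over its full window was 0.136, and 14.7% of all windows had a lower one.

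Of the lineage lists, the goblet cell markers differed most between the libraries in summed TPM. The 20 goblet markers summed to 9169.6, 8882 and 40466 TPM, so library 3 held 4.48 times the mean of the other libraries. All 18 markers with a mean of at least 1 TPM were more than 2-fold higher in library 3 than in both others, against 3.08% of protein-coding genes with that mean. Guca2a, the peptide guanylin that acts on the intestinal guanylate cyclase, was at 1433, 1374 and 5947 TPM and the protease inhibitor Spink4 at 1416, 1384 and 5801. Zg16, a lectin of the mucus, was at 604, 578 and 3820.1 TPM, and Muc2, the main mucin, at 339, 349 and 1128. In libraries 1 and 2, too, Zg16 alone exceeded the sum of the 4 stem cell markers. Without library 3 the goblet sum was 9026 TPM on average.

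Enteroendocrine markers, too, were higher in library 3. The 26 listed genes summed to 1464, 1431 and 5930.3 TPM, and 23 of the 25 with a mean of at least 1 TPM were more than 2-fold higher in library 3 than in both others, against 3.08% of protein-coding genes. Chgb, a granin of hormone granules, was at 495, 506 and 2277 TPM and Reg4 at 429, 385 and 1796. The proglucagon gene Gcg was at 124, 122 and 338 TPM, the granin Chga at 86.2, 86.3 and 373, and the cholecystokinin gene Cck at 82.2, 86.9 and 300.5. Peptide YY (Pyy) at 10.2, 13.6 and 12.1 TPM and Gip at 43.1, 43.2 and 56.5 were the 2 that did not exceed 2-fold. Without library 3 the enteroendocrine sum averaged 1447 TPM.

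Genes that commit cells to the secretory fate followed the goblet and enteroendocrine markers. Of 18 secretory determinants with a mean of at least 1 TPM, 13 were more than 2-fold higher in library 3 than in both others, against 3.08% of protein-coding genes. Atoh1, the factor of the secretory fate, was at 45.6, 48.6 and 159 TPM, Spdef of goblet cells at 48.9, 51.1 and 192, and Neurog3 of enteroendocrine progenitors at 35.3, 32.1 and 142. Creb3l1 was at 64.2, 73.9 and 238 TPM and Foxa1, the highest of the list, at 129, 136 and 159. The Notch ligands that secretory cells present were higher in library 3 too, with Dll1 at 28.6, 28.7 and 88.2 TPM and Dll4 at 11.8, 12.1 and 44.8. The Notch target Hes1 was lowest there at 63, 61.7 and 52.4 TPM, a difference well below 2-fold.

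Many absorptive cell markers were present and most tuft cell markers were low. The 26 enterocyte markers summed to 2906, 2920.4 and 2380.1 TPM, led by the brush border peptidase Anpep (641, 661 and 431) and the actin bundler Vil1 (568, 563 and 561). The fatty acid binding protein Fabp1 was at 263, 259 and 136 TPM and Apob at 167, 159.6 and 149. Of the 26, 20 (76.9%) reached 1 TPM in every library, against 52.3% of protein-coding genes, and 5 were below it in every library. These were Clca4a, Slc15a1, Treh, lactase (Lct) at 0.179, 0.323 and 0.339 TPM and apolipoprotein A4 (Apoa4) at 0.0788, 0 and 0. The tuft cell sum of 629, 630.3 and 971 TPM came mostly from Cd24a at 546, 549.9 and 891 TPM, which other crypt cells also express. Of the 19 tuft markers 8 (42.1%) reached 1 TPM in every library, below the 52.3% of protein-coding genes. Dclk1, the usual tuft marker, was at 0.66, 0.578 and 0.823 TPM, and Il25 and Sucnr1 had no read pair.

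**Figure D2:**
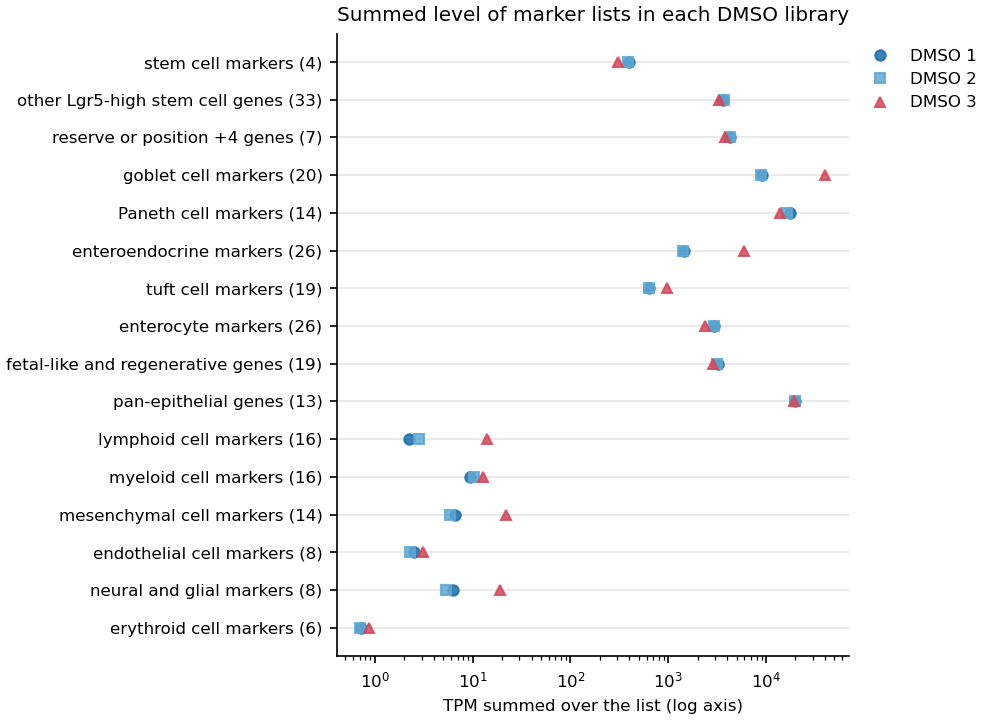
TPM summed over each marker list (horizontal, log axis) in the DMSO libraries of day 1 (circles), day 2 (squares) and day 3 (triangles), with the number of genes in brackets. Goblet and enteroendocrine sums of library 3 lie to the right of the other libraries, stem cell sums slightly to the left, and all lists of non-epithelial cells lie below 25 TPM.

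The cells were epithelial with few transcripts of other cell types. Pan-epithelial genes summed to 19904, 19726 and 19488 TPM, with Krt8 at 5260.1, 5153 and 4765 TPM, Krt18 at 2605, 2584 and 2535 and the adhesion molecule Epcam at 1242, 1204 and 1343. The 16 lymphoid markers summed to 2.21, 2.85 and 14 TPM, and the 16 myeloid markers to 9.42, 10.4 and 12.9, most of it Cd68 (7.68, 8.91 and 7.46). Library 3 was the highest for lymphoid genes, with granzyme A (Gzma) at 0, 0 and 5.49 TPM. Of the lymphoid list 1 gene of 16 reached 1 TPM in every library, of the myeloid list 2 of 16. Mesenchymal markers summed to 6.58, 5.84 and 21.8 TPM, of which Vim gave 5.19, 4.32 and 19.9. The 8 endothelial markers summed to 2.51, 2.29 and 3.12 TPM, with no read pair for Cdh5 and Emcn, and the 6 erythroid markers stayed below 1 TPM in sum. The 8 neural and glial markers summed to 6.22, 5.35 and 19.2 TPM. The part of all these other cell types in the differences of library 3 was not tested.

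**Figure D3:**
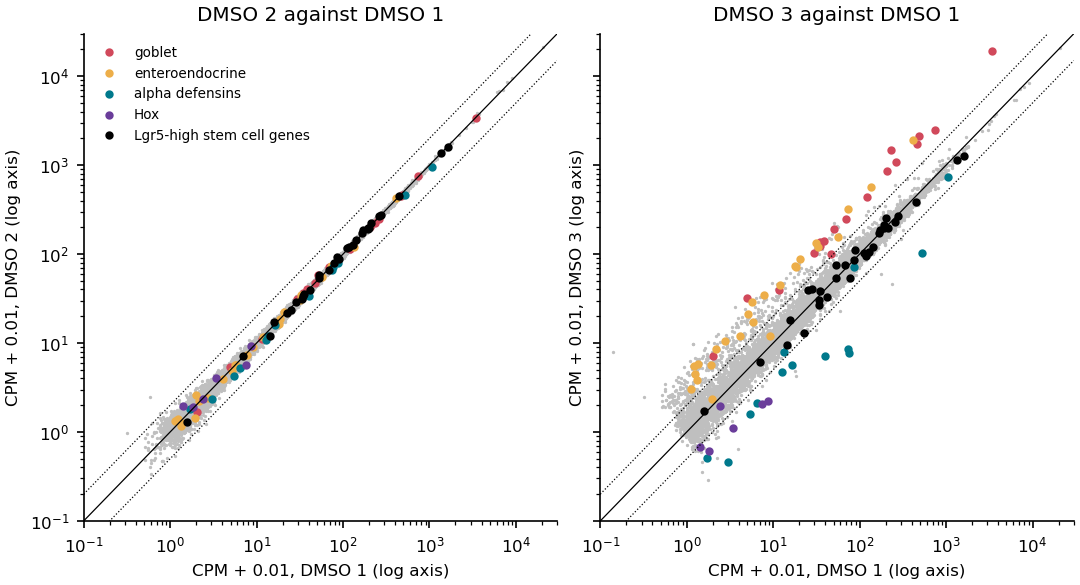
CPM of each gene with a mean of at least 1 CPM in DMSO library 2 (left) and library 3 (right) against library 1, on log axes after adding 0.01, with the line of equality and dotted lines at 2-fold. Most goblet and enteroendocrine markers lie above the upper dotted line and most alpha defensins and Hox genes below the lower one for library 3, whereas in library 2 all coloured genes lie within 2-fold.

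Most of the genes that varied most between the libraries were markers of secretory cells. Among protein-coding genes of at least 10 CPM, the 12 with the largest SD of log2 CPM were the Paneth cell defensins Defa21 (SD 1.88), Defa22 (1.75), Defa5 (1.37) and Defa30 (1.30), Afp (1.64), the goblet genes Zg16 (1.56) and Fcgbp (1.44), Ccl9 (1.52), the hormone gene Sst (1.36), Gm14851 (1.33) and the enteroendocrine factors Fev (1.33) and Nkx2-2 (1.31). The defensins and Gm14851 were lowest in library 3, and all the others were highest there. Afp, the alpha-fetoprotein gene, was at 3.46, 3.33 and 24.2 TPM, and somatostatin (Sst) at 25.5, 25.8 and 130.4. The 6 with the smallest SD were Aldh18a1, an enzyme of proline synthesis, Il10rb, Cdcp1, Brd3, Ankrd13b and R3hcc1l. Aldh18a1 was at 231, 231 and 229 TPM. Over all 12824 genes of at least 1 CPM the median SD was 0.10, and it was 0.04 without library 3.

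Genes that mark the small intestine were mostly present, those of the stomach were mostly near 0, those of the colon were mixed, and some position genes differed in library 3. Gata4, a factor of the proximal small intestine, was at 181, 185 and 140.1 TPM, Pdx1 of the duodenum at 36.7, 38.7 and 27 and Onecut2 at 82.2, 82.5 and 66.9. All were lowest in library 3. Fabp6, the ileal bile acid binding protein, was at 0.896, 0 and 53 TPM, that is 6, 0 and 363 read pairs, so nearly all of its pairs were in library 3. Slc10a2, the ileal bile acid transporter, was low in each, at 2.36, 2.37 and 2.02 TPM. Of the 6 Hox genes with a mean of at least 1 TPM, all of the Hoxb cluster, 5 were more than 2-fold lower in library 3, against 0.431% of all genes with that mean. Hoxb9 was at 11, 11.9 and 2.77 TPM and Hoxb6 at 12.4, 9.37 and 3.42, while Hoxb4 stayed at 3.07, 2.97 and 2.48. Of 11 colon genes 5 (45.5%) reached 1 TPM in every library, near the 52.3% of protein-coding genes, and they summed to 209.9, 207 and 207 TPM. Most of that sum was the peroxiredoxin gene Prdx6 at 162, 160.3 and 159 TPM, followed by the membrane mucin Muc4 at 28.9, 30.4 and 29.8. The median of the 11 genes was only 1.06 TPM, and Car1, Aqp8 and Hoxb13 had no read pair. The sum therefore says little about the rest of the list. Of 10 stomach genes Gkn2, Muc5ac, Pga5 and Sox2 had no pair, and only Atp4a reached 1 TPM in every library.

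Most Wnt receptors were present and most Wnt ligands were not. Of 23 Wnt and R-spondin receptors and membrane regulators, 19 (82.6%) reached 1 TPM in every library, against 52.3% of protein-coding genes. After Lgr4 came the ubiquitin ligase Rnf43, which removes Wnt receptors, at 105, 110.4 and 98.1 TPM, the coreceptor-like kinase Ryk at 81.2, 82 and 72.2, the Wnt receptor Fzd5 at 79.3, 80.5 and 63.2 and the coreceptor Lrp5 at 59.8, 61.4 and 65.5. Lgr6 had no read pair. Inside the cell beta-catenin (Ctnnb1) was at 422, 413 and 385 TPM, and the feedback gene Axin2 at 98.2, 102 and 101. Both genes of the kinase that CHIR99021 blocks were present, with Gsk3b at 63.2, 65.3 and 62.7 TPM and Gsk3a at 61.4, 60.6 and 62.1. Among 35 Wnt ligands and secreted regulators 7 (20%) reached 1 TPM in every library, below the 52.3% of protein-coding genes. Wnt3, the ligand made by Paneth cells, was at 22.7, 23.3 and 92.9 TPM, and Wls, which carries Wnt proteins to the surface, at 29.1, 29.7 and 36.1. Of the 11 genes of this list with a mean of at least 1 TPM, 5 were more than 2-fold higher in library 3 than in both others, against 3.08% of protein-coding genes, and Wnt3 was among them. No pair was found for Wnt1, Wnt3a, Dkk1, Rspo2 and Rspo3.

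Other pathways of the niche were each present in part, with shares of genes at 1 TPM on both sides of the 52.3% of protein-coding genes. Of the 20 Notch pathway genes 15 reached 1 TPM in every library, led by Adam10, the protease that cleaves the Notch receptor, at 134, 130.0 and 119.5 TPM and Hes6 at 102, 99.5 and 131. Notch1 was at 20.3, 20.1 and 13.2 TPM and Notch2 at 22.4, 23.1 and 16.4. Of 11 EGF family ligands, Areg (amphiregulin) stood far above the others at 592, 574 and 552 TPM, followed by Btc (31.5, 32.2 and 25.8), Ereg (29.1, 28.9 and 25.7), Tgfa (20.2, 21.5 and 22.3) and Hbegf (17.9, 16.6 and 11.9). The ERBB receptors were all below Areg: Egfr at 15.5, 14.6 and 14 TPM, Erbb2 at 63.4, 66.5 and 59.6 and Erbb3 at 43.4, 45.7 and 58.2, with no pair for Erbb4. Among 36 receptor tyrosine kinases 16 reached 1 TPM, the collagen receptor Ddr1 being highest at 82.8, 84.7 and 80.3 TPM. Of 30 BMP and TGF-beta pathway genes 18 reached 1 TPM, with Tgfbr2 at 82.7, 83.4 and 64.3 TPM and Bmpr1a at 66.6, 65.2 and 63.8. The BMP inhibitor Grem1 had no pair. Indian hedgehog (Ihh) was at 72.4, 73.5 and 96.4 TPM, whereas Gli2 and Gli3, which act in the mesenchyme that receives it, had none.

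Across all receptor lists 156 of 367 genes (42.5%) reached 1 TPM in every library, below the 52.3% of all protein-coding genes. No read pair was found for 41 of the 367, a smaller share than the 23.6% of protein-coding genes. The highest was the integrin chain Itgb1, which anchors cells to matrix, at 268 ± 2.71 TPM (mean ± SD, n = 3). Then came the TWEAK receptor Tnfrsf12a (176 ± 2.38), the interferon gamma receptor chain Ifngr1 (167 ± 7.43), the lymphotoxin receptor Ltbr (157 ± 5.33) and Lgr4 (152 ± 3.06). Gucy2c, the guanylate cyclase that guanylin activates, followed at 146 ± 10.5 TPM. Other receptors above 100 TPM on average were the inflammasome sensor Nlrp6, the integrins Itga6, Itga3 and Itgb4, the ephrin receptor Ephb4, the flagellin sensor Naip6, the vitamin D receptor Vdr, Adgrg7, the protease receptor F2rl1 and the TNF receptor Tnfrsf1a. Itgb1 stood apart from the next gene by far more than their SD, whereas Tnfrsf12a and Ifngr1 differed by little more than theirs. Il22ra1, the receptor chain for interleukin 22, was at 86.5, 89.9 and 83.8 TPM. None of the 20 highest receptors differed more than 2-fold between libraries. Of all genes with a mean of at least 1 CPM, only 3.98% did so between libraries 1 and 3. The widest apart of the 20 receptors were Epha2 and Nlrp6: Epha2 was at 102, 105 and 73.3 TPM and Nlrp6 at 149.8, 150.2 and 118.

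Receptor lists differed in how many genes reached 1 TPM. None of 21 chemokine receptors reached 1 TPM in any library, and their sum was 1.5, 1.06 and 1.87 TPM. Ccr3, Cxcr2, Cxcr1, Ccr8 and Ackr2 were among those that had no read pair. Of 58 hormone and neurotransmitter receptors 11 reached 1 TPM in every library, a smaller share than the 52.3% of protein-coding genes. Another 17 (29.3%) had no pair, Glp2r among them, against 23.6% of protein-coding genes. Gucy2c and F2rl1 led this list, then Vipr1, the receptor for vasoactive intestinal peptide, at 22.5, 25.8 and 17.1 TPM, the adrenergic receptor Adra2a at 16, 16.7 and 19 and the muscarinic receptor Chrm4 at 6.76, 7.73 and 8.65. Of 42 cytokine receptors 22 (52.4%) reached 1 TPM in every library, as did 16 of 24 genes of the TNF receptor family (66.7%) and 17 of 29 innate immune receptors (58.6%), near or above the 52.3% of protein-coding genes.

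Of 18 genes that sense or carry bile acids, 11 (61.1%) reached 1 TPM in every library, near the 52.3% of protein-coding genes. In this list 2 nuclear receptors and 2 efflux pumps were highest. Vdr was at 123, 127 and 104 TPM, the efflux pumps Abcc3 at 107, 108 and 128 and Abcc2 at 62.2, 61.9 and 81.2, the xenobiotic receptor Nr1i2 at 56.8, 53.8 and 50.4 and the bile acid receptor FXR (Nr1h4) at 33.9, 34.1 and 29.6. Among membrane receptors S1pr2 was at 6.73, 7.06 and 6.47 TPM and Chrm3 at 3.66, 3.81 and 5.4. Gpbar1 (TGR5) had 4, 0 and 5 read pairs, the nuclear receptor Nr1i3 had 13, 6 and 6, and Chrm2 had none. Downstream of such receptors, the G protein subunits Gnai2 (249.6, 251 and 241 TPM), Gnai3 (241, 244 and 228) and Gna11 (197, 198 and 180.1) were high, and so was the adenylyl cyclase Adcy6 at 97.1, 98 and 112 TPM. Gnas, which encodes the stimulatory subunit, was listed at 3.78, 3.83 and 3.25 TPM. It overlaps other transcripts on both strands, and ambiguous pairs were left out of these counts, so its level is uncertain.

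**Figure D4:**
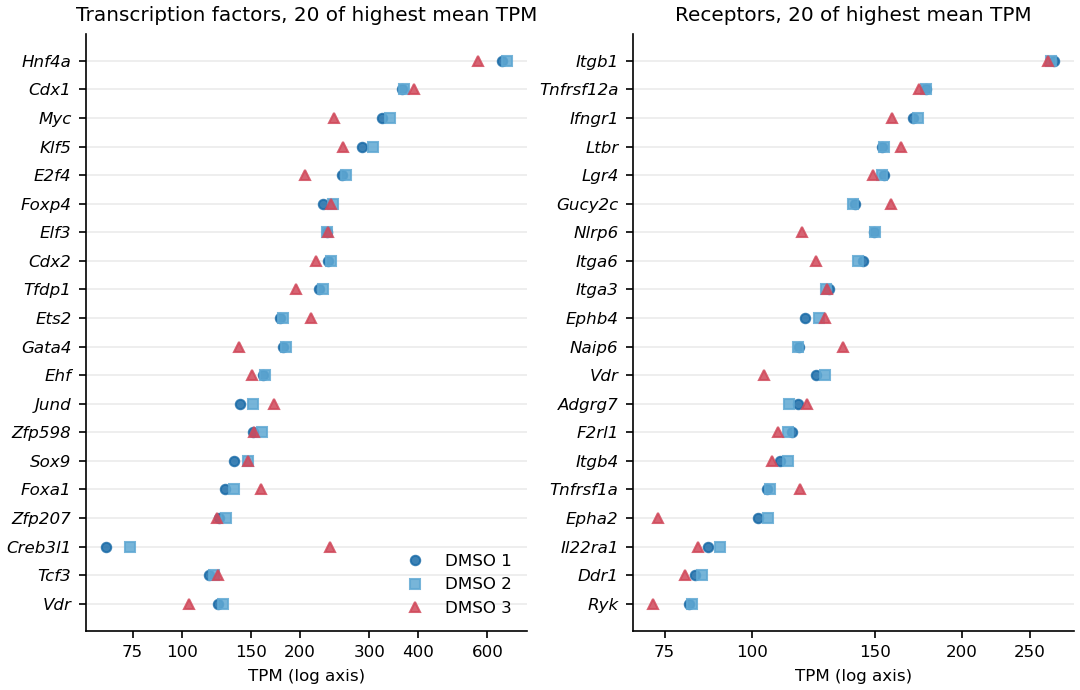
TPM of the 20 transcription factor genes (left) and the 20 receptor genes (right) of highest mean TPM, on log axes, with circles for day 1, squares for day 2 and triangles for day 3. Hnf4a and Itgb1 lead, most genes lie close together across libraries, and Creb3l1 is the one gene far to the right in library 3.

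Factors of intestinal identity and of growth and the cell cycle stood among the highest transcription factors. Of 804 factor genes in the lists, 457 (56.8%) reached 1 TPM in every library, near the 52.3% of protein-coding genes. Of the factor genes 23 reached 100 TPM in every library, a smaller share than the 7.12% of protein-coding genes. No read pair was found for 88, also a smaller share than the 23.6% of protein-coding genes. Hnf4a, a nuclear receptor that drives enterocyte genes, was highest at 652, 671 and 567 TPM. The caudal homeobox factors Cdx1 (363, 368 and 390.2) and Cdx2 (236, 239.6 and 219), which specify intestine, were among the first 8. Myc, a driver of growth and a Wnt target, was at 323, 339 and 245 TPM and Klf5, a factor of proliferating crypt cells, at 288, 306 and 257. Between Klf5 and Cdx2 stood E2f4 (241 ± 30.4 TPM, mean ± SD), Foxp4 (237 ± 6.94) and Elf3 (234 ± 0.868). The partner of E2F factors Tfdp1 was at 216 ± 17.8 TPM, Ets2 at 191 ± 19.4, Ehf at 158 ± 6.22 and Sox9, a crypt factor, at 144 ± 6.51. E2f4, Foxp4, Elf3 and Cdx2 overlapped within their SD, so their order is not resolved. Of 30 intestinal identity factors 28 reached 1 TPM in every library, 93.3% against 52.3% of protein-coding genes.

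The promoter of Cdx2 is shown as that of a factor of intestinal identity (RefSeq, GRCm38.p6, chr5:147307271-147307499, minus strand, capitals mark CG, the annotated exon left out).
Cdx2: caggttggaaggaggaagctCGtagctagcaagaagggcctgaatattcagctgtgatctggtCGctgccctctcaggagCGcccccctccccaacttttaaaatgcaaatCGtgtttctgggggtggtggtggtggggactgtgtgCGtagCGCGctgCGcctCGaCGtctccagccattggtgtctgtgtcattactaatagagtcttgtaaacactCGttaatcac
The ratio of observed to expected CG over its full window was 0.731, above the median of all windows.

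Transcription factor families differed in how many members were present. Of 6 GATA factors Gata4, Gata5 (64.3, 64.7 and 70.2 TPM) and Gata6 (38.2, 41 and 43.4) were present, and Gata1, a blood factor, had no read pair. Of 19 Sox factors Sox9 was followed by Sox4 (41.8, 42.2 and 64), Sox13 (32.2, 32.7 and 31.6), Sox12 (19.9, 21 and 20.7) and Sox6 (6.95, 6.99 and 8.12), while Sox1, Sox2, Sox10, Sox17 and Sox30 had no pair. The forkhead family of 44 genes was led by Foxp4, Foxa1, the cell cycle factor Foxm1 (106, 110.3 and 86.9 TPM), Foxk2 (95, 95.4 and 79.5) and Foxa3 (63.1, 62.6 and 106). Of its members 17 (38.6%) reached 1 TPM in every library, below the 52.3% of protein-coding genes. Among 17 Kruppel-like factors Klf5 was highest and Klf4, a factor of differentiated and goblet cells, was at 42.5, 44 and 109 TPM, more than 2-fold higher in library 3. All 10 genes of the E2F list, which holds their partners too, reached 1 TPM in every library. Of 48 nuclear receptors 34 (70.8%) reached 1 TPM in every library, against 52.3% of protein-coding genes. Behind Hnf4a and Vdr were Nr1h2 at 91.9, 92.9 and 92.5 TPM and Esrra at 72.5, 73.4 and 70.1, and the glucocorticoid receptor Nr3c1 was at 52.9, 52 and 40.1.

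Genes of glycolysis and protein folding were high, those of cell contacts and keratins were present in part, and in none of these lists did library 3 stand far apart. Of 23 glycolysis genes 22 reached 1 TPM in every library. The whole list summed to 6867, 6857 and 6346 TPM, with Gapdh at 1344, 1352 and 1248 TPM, Aldoa at 1106, 1098 and 1059 and Pkm, the pyruvate kinase of growing cells, at 932, 939 and 877. The 15 chaperone genes all reached 1 TPM, and Hsp90ab1, Hspa8 and the mitochondrial chaperonin Hspd1 (1236, 1232 and 976 TPM) led them, each lowest in library 3. Claudins seal tight junctions or form pores in them. Of 18 claudins 9 reached 1 TPM in every library (50%, near the 52.3% of protein-coding genes), Cldn3 at 846, 863 and 1035 TPM, the pore-forming crypt claudin Cldn2 at 762, 771 and 679 and Cldn7 at 714, 689.7 and 758 being highest. Of 22 keratins 8 (36.4%) reached 1 TPM, and Krt13, Krt17 and Krt71 had no pair. Among 21 integrins 12 (57.1%) reached 1 TPM, and the laminin receptor chains Itga6 (144, 142 and 123 TPM), Itga3 (129, 128 and 128) and Itgb4 (109.8, 113 and 107) followed Itgb1. Of 22 Eph receptors and ephrins, which sort cells along the crypt, 13 (59.1%) reached 1 TPM, with Ephb4 at 119, 125 and 127 TPM, Epha2 at 102, 105 and 73.3, the ligands Efnb1 at 86.8, 90.1 and 81.4 and Efnb2 at 65.9, 70.0 and 60.3, and the Wnt target Ephb2 at 66.8, 68.9 and 59.3. No gene of these 6 lists with a mean of at least 1 TPM was more than 2-fold apart in library 3 from both others. Such genes were rare in general: of protein-coding genes with that mean, 3.08% were higher by this rule and 0.431% lower.

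Immediate-early genes, which respond to stimulation and handling, were present at moderate level. Of 21 such genes 18 (85.7%) reached 1 TPM in every library and 5 reached 100 TPM, against 52.3% and 7.12% of protein-coding genes. Besides Myc these were led by Zfp36l2 at 270.0, 290.1 and 237 TPM, Jund at 141, 152 and 172, Ier2 at 134, 131 and 119 and Junb at 109, 119 and 103. Genes of the fetal-like, regenerative state were present as well, with Ly6a at 814, 791 and 393 TPM, S100a6 at 654, 612 and 769 and the claudin Cldn4 at 444, 437 and 544. Ly6a, which encodes Sca-1, was more than 2-fold lower in library 3.

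Factors that build other organs were mostly without a read pair. Of 53 determinants of other organs 27 (50.9%) had no read pair, against 23.6% of protein-coding genes. No pair was found for the muscle factors Myod1, Myf5 and Myog, the neural crest factor Sox10, the lung and thyroid factor Nkx2-1, the pancreas factor Ptf1a, or the pluripotency factors Pou5f1 and Nanog. Of 39 Hox genes 13 had no pair. The large sensory families were at or near 0 too: 1045 of 1134 olfactory receptor genes (92.2%), 293 of 323 vomeronasal receptors and 29 of 35 bitter taste receptors had none. So had 55 of 57 keratin-associated protein genes, 38 of 42 beta defensins and 9 of 10 globins. Over all 54838 listed genes, 27931 (50.9%) were without a pair in the 3 libraries.

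Genes without a read pair differed widely in promoter sequence. The promoter of Ptf1a is shown as that of a silent organ factor and that of Gkn2, a stomach gene, as that of a silent tissue gene (RefSeq, GRCm38.p6, both on the plus strand, at chr2:19445413-19445662 and chr6:87373115-87373356, capitals mark CG, the annotated exon of Gkn2 left out).
Ptf1a: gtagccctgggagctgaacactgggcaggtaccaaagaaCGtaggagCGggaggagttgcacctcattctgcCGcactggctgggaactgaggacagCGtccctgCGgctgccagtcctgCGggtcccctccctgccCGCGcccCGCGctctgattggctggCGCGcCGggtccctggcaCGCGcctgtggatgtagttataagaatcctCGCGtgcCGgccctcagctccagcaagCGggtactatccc
Gkn2: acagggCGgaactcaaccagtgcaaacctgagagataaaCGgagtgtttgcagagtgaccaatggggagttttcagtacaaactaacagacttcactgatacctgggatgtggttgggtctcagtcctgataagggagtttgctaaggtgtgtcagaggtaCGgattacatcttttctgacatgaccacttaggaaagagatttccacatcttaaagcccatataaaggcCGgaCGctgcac
The first holds 19 CG in 250 bases and the second 5 in 242. Over the full windows the ratio of observed to expected CG was 0.677 for Ptf1a, close to that of Ascl2, and 0.358 for Gkn2.

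Across all genes with a window, those of higher level had more CG up to the class of 10 to 100 TPM, with little change beyond it. RefSeq windows matched 16514 of 21969 protein-coding symbols. The median ratio of observed to expected CG was 0.16 for 3578 genes without a read pair, 0.37 under 1 TPM, 0.66 from 1 to 10 TPM, 0.80 from 10 to 100 TPM and 0.82 from 100 to 1000 TPM. It was no higher, at 0.80, for the 57 genes of 1000 TPM or more. Within the genes without a pair, 59 transcription factors had a median of 0.55, and 1251 members of the silent families had 0.11. The other 2268 silent genes had 0.19. A ratio of at least 0.6 was found for 23 of the 59 factors (39.0%) and for 6 of the 1251 family members (0.480%). The letters TATAAA, searched on the strand of the gene from 45 to 15 bases before the start, were in 2.89% of all windows, in 6.26% of those of genes without a pair and in 1.08% of those of genes from 10 to 100 TPM. Of the 6 promoters shown only that of Gkn2 held them. The motif ATCAAAG of the Wnt pathway factors, searched on both strands in the 250 bases before the start, was in 2.78% of all windows and in none of those shown. It was in all 12 windows at hand for alpha defensins, which are near-identical copies and so not separate cases. A match describes letters and not binding, and the absence of a match says nothing about the factor.

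**Figure D5:**
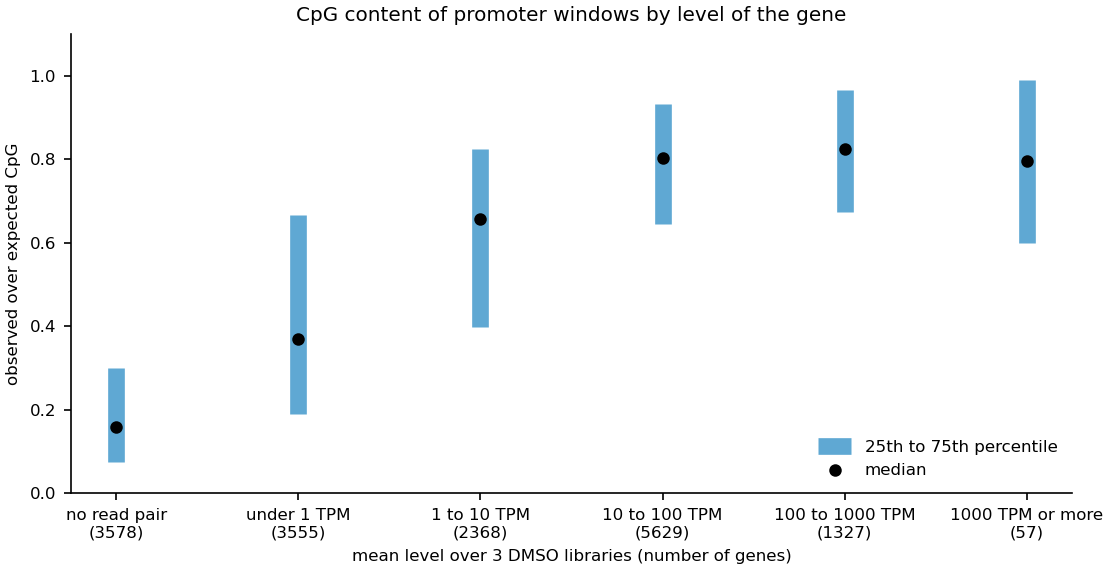
Ratio of observed to expected CG in promoter windows of 300 bases (vertical) for genes grouped by mean TPM over the 3 DMSO libraries (horizontal, with the number of genes), as the median (dots) and the range from the 25th to the 75th percentile (bars). Genes without a read pair have a median of 0.16 and genes of 10 TPM or more medians near 0.80.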

How the data were processed

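RNA of 3 DMSO libraries was analysed; the groups follow the sample titles. Each deposited file gives the raw counts of 1 library, as read pairs per Ensembl gene in the layout of STAR. The tools that the submitters' processing notes name are FastQC, STAR 2.73a and edgeR 3.24.3, with the builds GRCm38 and mm10. The column that ignores strand was used, so genes overlapping on opposite strands are ambiguous, and pairs that align to several places are not in the counts. Pairs on no gene or on several (unmapped 10.5 to 11.3%, multimapping 6.00 to 6.31%, no feature 3.59 to 3.83%, ambiguous 4.35 to 4.43%) stayed out, which left 74.5 to 75.2%. Of 54838 Ensembl IDs, 54809 matched GENCODE M21, whose merged exon lengths gave TPM. Of the names in the gene lists 1201 matched and 2 did not.

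CPM used the total on genes, without further scaling. SD is over 3 libraries, on log2(CPM + 0.01) where log2 is named. Promoter windows are RefSeq's. The 4 markers, the 20 genes highest by CPM and by TPM, up to 5 members of each list, members without a pair, and the 12 most and 6 least variable genes were named by rule. Other list members named were chosen after their values were seen. Members and lists were chosen with earlier results of these data known. No test between groups was made, so nothing was adjusted. Alternatives were other CPM minimums, TMM factors (edgeR 4.0.16 in R 4.3.3), summed strand columns, longest transcripts, mitochondrial genes left out, and leaving out each library. The calculations (Python 3.11.15, pandas 2.3.3, numpy 2.4.6) were tested on simulated data, and figures were made with matplotlib 3.10.9. Results for a few listed genes are not reported here.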

Additional observations from a re-analysis of the deposited data

How the results depend on the processing

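Counts of genes stayed within 1.5 times their main value under every alternative tried: those at or above 1 CPM in every library ran from 11425 (2 CPM) to 13769 (strand columns summed), and those without a pair from 26818 to 29581. The share of the 10 most abundant genes was 3.95% with mitochondrial genes left out and 16.9% as a share of TPM, and 7.29 to 7.92% when 1 library was left out. The median SD of log2 CPM was 0.0359 to 0.114 with 1 library left out, the lowest without library 3. Lengths and the denominator moved TPM by their own construction. By the longest transcript Paneth markers summed to 12609 and enterocyte markers to 2425 TPM, and Lgr5 was at 37.4 and Smoc2 at 146.3. With mitochondrial genes left out these were 18874, 3217, 26.2 and 125.2 TPM. With strand columns summed Lgr5 was at 18.5, Smoc2 at 88.7, Olfm4 at 157.5 and Ascl2 at 38.3 TPM. Their main values were 22.3, 106.6, 189.4 and 46.1 TPM, so all fell in about the same proportion, with or without a gene known to overlap on the opposite strand. The cause was not tested. Goblet sums ran from 9026 to 24818 TPM and enteroendocrine sums from 1447 to 3697 with 1 library left out, the lowest again without library 3, so their means rest on that library. In all, 25 of 125 alternative values moved, by more than 1.5 times for counts of genes and by more than the spread between libraries otherwise. Leaving out 1 of 3 libraries cannot shift a mean by more than their SD. For means, the values with 1 library left out could therefore not count as moved, and this tally does not show stability. Depth was even between libraries and limits only genes near 3 pairs. With 3 libraries, of which 2 were close to replicate noise, the spread between days is poorly known. No paired analysis was possible because only the DMSO libraries were used and no test was made.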

Other observations

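Several groups of transcripts outside the comparisons had values that a reader may want to see. The 13 genes of mitochondrial proteins fell into a high and a low set. The 7 high ones were led by mt-Co1 at 43864, 45588 and 43368 TPM, and the lowest of them was mt-Nd6 at 7296, 7934 and 7201. The counts ignore strand, so RNA from the strand opposite mt-Nd6 would be counted with it, and its part was not tested. The low genes were mt-Co2 (107, 128 and 66.6), mt-Atp6 (59.1, 69.1 and 43.5), mt-Co3 (44.5, 42.9 and 28.4), mt-Nd4l (16.4, 18 and 8.48), mt-Nd3 (15.4, 11.9 and 12.5) and mt-Atp8 (10.2, 8.04 and 8.57). Pairs that align to several places were left out of the counts, and the part of this in the low values was not tested. A group of unprocessed pseudogenes side by side on chromosome 1 also had read pairs, among them Gm10925 with 1151, 1269 and 904 and Gm29216 with 641, 642 and 567.

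Processed pseudogenes, copies of spliced transcripts set back into the genome, held 0.356% of read pairs and 2.38% of TPM. The highest were Gm12328 at 2025, 1926 and 1957 and Gm44389 at 1959, 1875 and 1923 TPM.

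Cytosolic ribosomal protein genes summed to 68747, 65853 and 67717 TPM over 80 genes. None of the 77 with a mean of at least 1 TPM was more than 2-fold apart in library 3 from both others. Of all protein-coding genes with that mean, 3.08% were higher by this rule and 0.431% lower. Replication-dependent histone genes, whose transcripts lack poly(A) tails, summed to only 68.5, 61.8 and 68.1 TPM in cells in which Mki67 was at 327, 326 and 265. The short non-coding RNAs Rn7sk, Rmrp and Rpph1 had no read pair, while the long non-coding RNAs Gas5 (133, 129.8 and 119 TPM), Malat1 (76.2, 80.9 and 66.4) and Neat1 (67.8, 70.2 and 86.4) were present.

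Genes of the Y chromosome were present in every library, with Eif2s3y at 49.1, 46.5 and 42.2 and Ddx3y at 31.7, 29.6 and 32.1 TPM, and Xist was at 0.0877, 0.0517 and 0.105 TPM. These levels were close between days.

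Cytochromes of drug metabolism were led by Cyp1a1 at 126, 128 and 143, Cyp2c55 at 124, 117 and 129.6 and Cyp2c65 at 103, 106 and 99.8 TPM, all close between libraries. Among 383 solute carriers 230 (60.1%) reached 1 TPM in every library, against 52.3% of protein-coding genes. The mitochondrial ADP and ATP carrier Slc25a5 was at 1295, 1261 and 1294 TPM.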
